A study of Mus musculus with 6 samples.

Results

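The Notch genes described here are 10 of the 23827 genes listed in the deposited table: the receptor genes Notch1, Notch2 and Notch4, the ligand genes Dll4, Dll1, Jag1 and Jag2, and the Hes/Hey genes Hey1, Hey2 and Hes1. They were taken by symbol, and each has a single row with a single RefSeq transcript. The study sequenced polyadenylated RNA bound to ribosomes of mouse brain endothelium at E14.5 (embryonic day), obtained by translating ribosome affinity purification, a pull-down of tagged ribosomes together with the RNA they carry. There were 2 groups of 3 biological replicates: wild type (Wt), and R26 Axin1 IresLacZ overexpression, in which Axin1, the scaffold of the complex that destroys beta-catenin, is expressed with a lacZ reporter from the Rosa26 locus. Both groups were on a mixed C57BL/6 x 129/Sv background, and in both the mothers had received tamoxifen at E12.5. The Cre driver, the tagged ribosome allele and any pooling of embryos do not appear in the labels. The comparison asks whether Axin1 overexpression, which would dampen Wnt/beta-catenin signalling, goes with altered Notch gene expression in forming brain vessels. Whether that signalling was dampened in these libraries is not examined here.

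Notch signalling passes between touching cells. A ligand of the Delta-like or Jagged family on one cell binds a Notch receptor on its neighbour, 2 cleavages release the intracellular part of the receptor, and this part joins RBPJ on DNA and switches on repressor genes of the Hes and Hey families. In growing vessels, Dll4 on the leading tip cell holds back tip behaviour in the following stalk cells, Jag1 counteracts Dll4, and Notch activity also sets arterial identity. The same pathway keeps neural progenitors of the embryonic brain undifferentiated, with Dll1 as a ligand and Hes1 as a target.

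Levels are given as RPKM, read counts divided by transcript length and by library size, a scale on which genes of different length can be set side by side. Reads recovered from the table numbered 53524184 to 62507510 per wild-type library and 21076922 to 37040176 per Axin1 library, so the wild type was 1.84 times as deep on average. Axin1 itself lay at 13.6 to 15.1 RPKM in wild type and at 37.4 to 38.1 RPKM with overexpression. All 10 endothelial markers were detected, with a summed level of 3115 to 3260 RPKM in wild type and 2599 to 2804 RPKM with Axin1. By limma 3 of them were lower (Cldn5, Esam and Tie1), 1 was higher (Emcn) and 6 did not pass, where 22.8% of all tested genes were called. Cldn5, the highest of the 10, went from 1263 ± 104 to 748 ± 61.3 RPKM (SD, n = 3), so the sum weighs this gene most. The lower sum is therefore not read as less endothelial RNA. Emcn went from 136 ± 4.3 to 284 ± 2.72 RPKM (SD, n = 3). Markers of 6 other cell types were also present, 20 of 56 higher and 6 lower. Of all tested genes, 14.4% were called as higher and 8.37% as lower. The higher markers included all 4 tested erythroid markers, a list whose sum was 95.1 to 122 RPKM in wild type and 319 to 640 RPKM with Axin1. The column names carry a tag, 148 for every wild-type and 216 for every Axin1 library. If it marks a run, run and genotype cannot be told apart.

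In wild type, the highest of the 10 genes was Jag2 at 57.2 ± 4.5 RPKM, followed by Dll4 at 51.9 ± 3.57, Notch4 at 51.6 ± 3.58 and Hey1 at 46.6 ± 0.687 RPKM (SD, n = 3). Then came Hes1 at 34.5 ± 2.98, Notch1 at 29.4 ± 1.67 and Jag1 at 22.2 ± 1.66 RPKM. The lowest were Dll1 at 9.19 ± 0.321, Notch2 at 8.87 ± 0.427 and Hey2 at 4.18 ± 0.743 RPKM (SD, n = 3 each). The highest mean was 13.7 times the lowest. Neighbours in this order whose wild-type libraries overlapped were Jag2 and Dll4, Dll4 and Notch4, Hes1 and Notch1, and Dll1 and Notch2, so their order is not resolved. Notch4, a receptor found mainly in endothelium, held 57.4% ± 2.29 of the summed RPKM of the 3 receptor genes, against 32.8% ± 1.72 for Notch1 (SD, n = 3). Of the summed ligand RPKM, Jag2 held 40.7% ± 2.98, Dll4 37.0% ± 2.22, Jag1 15.8% ± 0.954 and Dll1 6.55% ± 0.392 (SD, n = 3).

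**Figure D1:**
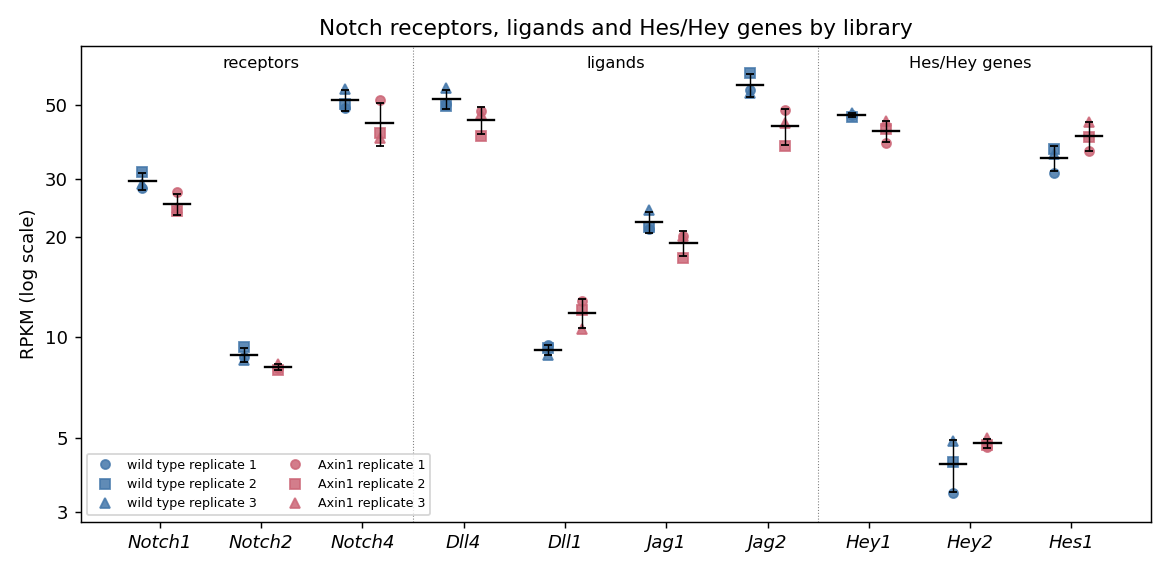
RPKM of the 10 Notch genes (log axis) in each library, wild type in blue and Axin1 overexpression in red, with the mean as a bar and the SD as whiskers (3 libraries a group). Dll1 sits higher in all 3 Axin1 libraries and Jag2 lower, while Notch4, Hey2 and Hes1 overlap between the groups.

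With Axin1 overexpression most of these genes moved little. By limma with Benjamini-Hochberg adjustment over all 12493 tested genes, 1 of the 10 genes rose (Dll1) and 1 fell (Jag2), where 22.8% of all tested genes were called, 14.4% as higher and 8.37% as lower. A share of 2 in 10 is close to that background. The libraries of the groups did not overlap for 7 of the 10 genes, 6 of them lower and 1 higher, where 43.9% of all tested genes did not overlap (15.9% lower, 28.0% higher). The log2 fold change, taken on RPKM + 1 as Axin1 minus wild type, was below 0 for 7 of the 10 genes with a median of -0.18, against 0.042 over all tested genes. The 7 are Notch1, Notch2, Notch4, Dll4, Jag1, Jag2 and Hey1. At an unadjusted limma p under 0.05 there were 7 of 10, where 39.0% of all tested genes pass. Scaling with median-of-ratios factors turned the split over all genes from 1800 higher and 1046 lower to 1248 and 1392, and gave 3 lower members (Jag2, Notch1 and Hey1). With values adjusted for base composition and length, as described with the receptors, Hey1 in place of Jag2 was the 1 lower member and Dll1 still the 1 higher, where 14.4% of all genes were called. In a bulk sample, fewer cells of a type and less RNA per cell cannot be told apart.

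Of the receptors, none passed. Notch1, which carries Dll4 signals in sprouting endothelium, measured 28.1, 31.3 and 28.8 RPKM in wild-type replicates 1 to 3 and 27.3, 23.9 and 24.4 RPKM in Axin1 replicates 1 to 3. The groups did not overlap, with the highest Axin1 library just under the lowest wild-type library. The log2 fold change was -0.22 (SE 0.07, 95% interval -0.38 to -0.047, limma adjusted p = 0.066). This gene passed without Axin1 replicate 1 (adjusted p = 0.0427), under median-of-ratios scaling (0.0494) or upper quartile scaling (0.0427), and with trend and robust variances (0.0481). Notch4 measured 48.8, 50.2 and 55.6 RPKM in wild type and 51.7, 41.0 and 39.8 RPKM with Axin1. Its Axin1 replicate 1 lay inside the wild-type range, and the other two Axin1 libraries lay below it (log2 fold change -0.23, SE 0.10, limma adjusted p = 0.145, or 0.0298 without Axin1 replicate 1). Notch2 measured 8.71, 9.35 and 8.54 RPKM in wild type and 8.11, 8.0 and 8.31 RPKM with Axin1, all below the wild type by a narrow margin (log2 fold change -0.11, SE 0.06, limma adjusted p = 0.211).

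The receptor transcripts are long: the reference gives 9488 bases for Notch1, 10500 for Notch2 and 6591 for Notch4, against a median of 3116 over tested genes. Notch4 is also rich in G and C at 61.2%, against a median of 50.5%. When each library was adjusted by loess for base composition and length (the GC and length adjustment), the log2 fold changes of Notch1, Notch2 and Notch4 were -0.0049, 0.062 and -0.0022 (limma adjusted p = 0.961, 0.482 and 0.991). On that setting the median of the 10 genes was -0.0035 and that of all genes 0.0032. The share of Notch4 in the summed receptor RPKM was 56.8% ± 2.29 with Axin1, and the ratio of Notch4 to Notch1 was 1.76 ± 0.163 in wild type and 1.75 ± 0.134 with Axin1 (SD, n = 3).

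**Figure D2:**
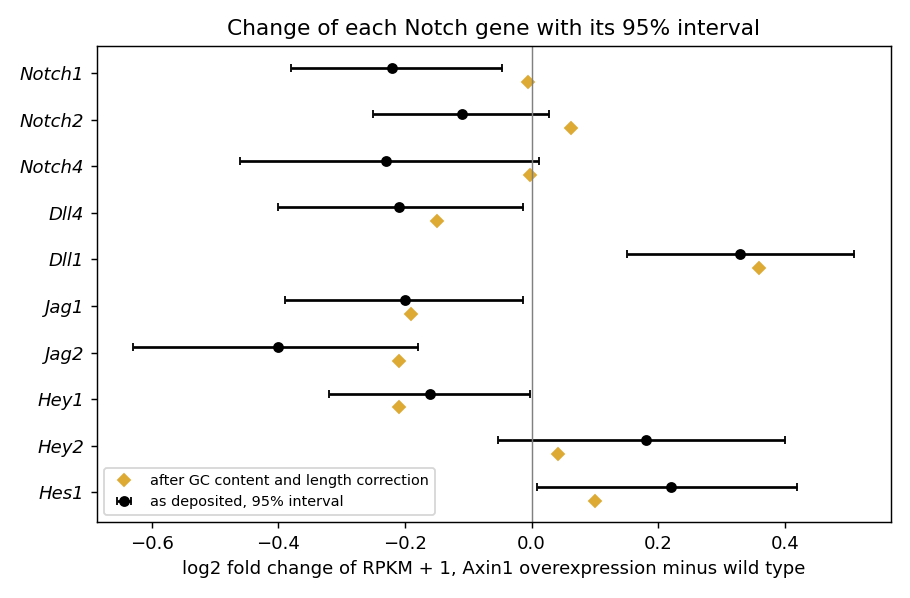
Log2 fold change of each Notch gene on RPKM + 1, Axin1 overexpression minus wild type, with its 95% interval from limma (black) and the value with the GC and length adjustment (yellow). Dll1 has the highest value at 0.33 and Jag2 the lowest at -0.40, single intervals of several genes that did not pass after adjustment over all genes also lie clear of 0, and the 3 receptor genes move to between -0.0049 and 0.062 with the adjustment.

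Among the ligands, Jag2 fell and Dll1 rose. Jag2, a Jagged ligand, measured 55.2, 62.3 and 54.1 RPKM in wild type and 48.2, 37.5 and 43.9 RPKM with Axin1. All 3 Axin1 libraries lay below all wild-type libraries, and replicate 2 was the lowest. The log2 fold change was -0.40 (SE 0.10, 95% interval -0.63 to -0.18, limma adjusted p = 0.0228), and the Axin1 mean was 75.6% of the wild-type mean. These values rest on 12589 to 13870 reads per wild-type library and 3759 to 7111 per Axin1 library. The call was lost without Axin1 replicate 2 (log2 fold change -0.31, adjusted p = 0.0766), Axin1 replicate 3 (-0.42, 0.0578) or wild-type replicate 2 (-0.34, 0.0564), and with the GC and length adjustment (-0.21, 0.157). The transcript of Jag2 has the highest GC content of the 10 genes, 61.9%.

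Dll1, a Delta-like ligand with a known role in neural progenitors and in arteries, measured 9.47, 9.27 and 8.84 RPKM in wild type and 12.9, 12.1 and 10.6 RPKM with Axin1. The groups did not overlap, and Axin1 replicate 3 came nearest to the wild type. Its log2 fold change was 0.33 (SE 0.08, 95% interval 0.15 to 0.51, limma adjusted p = 0.02), and the GC and length adjustment left it at 0.36 (adjusted p = 0.0222). The Dll1 call was lost without Axin1 replicate 1 (adjusted p = 0.0526), Axin1 replicate 2 (0.0775) or wild-type replicate 3 (0.0552). In the authors' deposited table the fold between the group means, wild type over Axin1, was 0.80 for Dll1 (adjusted p = 0.0292) and 1.36 for Jag2 (adjusted p = 0.0116), and these were the members under 0.05 there, where 8.88% of 18917 genes were (3.91% higher and 4.97% lower with Axin1).

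Markers of neural progenitors were mostly higher as well. Of 13 such markers, 11 were higher and 0 lower by limma, where 14.4% of all tested genes were called as higher. Their median log2 fold change was 0.52, and none was at 0 RPKM. Their summed level was 581 to 718 RPKM in wild type and 792 to 872 RPKM with Axin1. Without Axin1 replicate 2, 5 were higher. Sox2, a progenitor transcription factor with the largest log2 fold change of the list, went from 33.6 ± 4.52 to 58.2 ± 5.91 RPKM (SD, n = 3). Neurog2, a proneural factor, went from 15.7 ± 1.95 to 23.4 ± 5.10 RPKM (SD, n = 3). Both were picked after their values were seen. The 2 markers that did not pass were Nes, the highest of the list (log2 fold change 0.20, limma adjusted p = 0.156), and Slc1a3 (0.048, adjusted p = 0.756). The part of these cells in the Dll1 value was not tested. Hes5, the Hes gene typical of neural progenitors, measured 7.23 ± 0.362 and 7.53 ± 0.471 RPKM (SD, n = 3; log2 fold change 0.051, limma adjusted p = 0.61).

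Dll4, the tip cell ligand, measured 50.3, 49.5 and 56.0 RPKM in wild type and 48.0, 40.2 and 46.8 RPKM with Axin1. Jag1 measured 21.1, 21.4 and 24.1 RPKM in wild type and 20.2, 17.3 and 20.1 RPKM with Axin1. Both genes had every Axin1 library below every wild-type library, with replicate 2 lowest, and neither passed: log2 fold change -0.21 for Dll4 (95% interval -0.40 to -0.013, limma adjusted p = 0.11) and -0.20 for Jag1 (95% interval -0.39 to -0.014, adjusted p = 0.107). The ratio of Jag1 to Dll4 was 0.419 to 0.432 in all 6 libraries, with a mean of 0.427 ± 0.007 in wild type and 0.427 ± 0.00569 with Axin1 (SD, n = 3). On the log2 scale this balance of opposing ligands differed by 0.0047 between the groups (exact permutation test, two-sided, p = 0.70, adjusted over 4 pairs 0.80). The Dll1 share of the summed ligand RPKM was 9.99% ± 1.28 with Axin1, with no library below 8.71% where the highest wild-type library had 6.96%. The summed ligand level was 141 ± 3.88 RPKM in wild type and 119 ± 11.2 RPKM with Axin1 (SD, n = 3).

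The 3 Hes/Hey genes went different ways and none passed. Hey1, a repressor downstream of Notch in endothelium, measured 46.6, 45.9 and 47.2 RPKM in wild type and 38.4, 42.1 and 44.5 RPKM with Axin1. The groups did not overlap, and the Axin1 libraries were more spread than the wild type. The log2 fold change was -0.16 (95% interval -0.32 to -0.0028, limma adjusted p = 0.123), and Hey1 passed under median-of-ratios scaling (-0.21, adjusted p = 0.0437), upper quartile scaling (-0.22, 0.0433) and the GC and length adjustment (-0.21, 0.0459). Hes1, a repressor that Notch drives in many tissues, measured 31.2, 36.9 and 35.5 RPKM in wild type and 36.4, 40.0 and 44.3 RPKM with Axin1. Axin1 replicate 1 lay within the wild-type range and the others above it (log2 fold change 0.22, 95% interval 0.0087 to 0.42, limma adjusted p = 0.116). Hes1 is also a target in neural progenitors, whose markers were mostly higher. The part of these cells in the Hes1 value, and in the ratio of Hey1 to Hes1 below, was not tested. Hey2, a factor of arterial endothelium, measured 3.42, 4.22 and 4.90 RPKM in wild type and 4.68, 4.77 and 4.98 RPKM with Axin1, so that the groups overlapped and the wild type was the more spread (log2 fold change 0.18, limma adjusted p = 0.228).

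The ratios of Hey1 to Hey2 and of Hey1 to Hes1 were lower in every Axin1 library than in any wild-type library. Ratios to Hes/Hey genes outside the 10 were not taken. Hey1 stood at 13.6, 10.9 and 9.63 times the RPKM of Hey2 in wild type and at 8.19, 8.84 and 8.94 times with Axin1, a ratio that was not tested. Hey1 stood at 1.49, 1.24 and 1.33 times the RPKM of Hes1 in wild type and at 1.05, 1.05 and 1.00 times with Axin1. The groups did not overlap, and the difference on the log2 scale was -0.37 (exact permutation test, two-sided, p = 0.10, the smallest that 3 against 3 libraries allow; adjusted over 4 pairs 0.40). Of the other pairs in that family, Jag2 minus Jag1 differed by -0.20 (exact permutation p = 0.20, adjusted 0.40) and Notch1 minus Notch4 by 0.01 (exact permutation p = 0.80, adjusted 0.80). The ratio of Jag2 to Dll1, chosen after the values were seen and not tested, was 5.82 to 6.73 in wild type and 3.11 to 4.15 with Axin1.

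**Figure D3:**
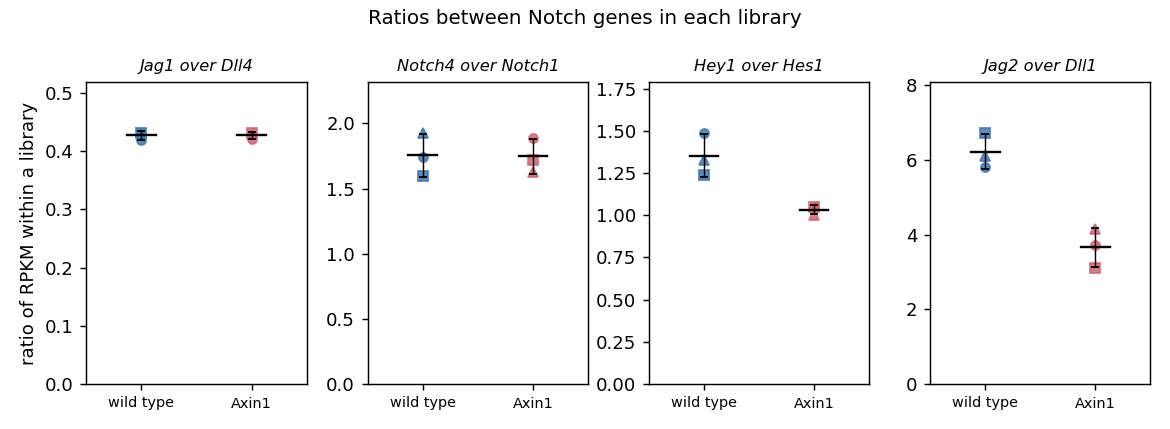
Ratio of the RPKM of paired Notch genes within each library (linear axes from 0), wild type in blue and Axin1 overexpression in red, circle, square and triangle for replicates 1 to 3, with mean and SD. Jag1 over Dll4 stays between 0.419 and 0.432, while Hey1 over Hes1 is 1.24 to 1.49 in wild type and 1.00 to 1.05 with Axin1.

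Reference promoters from RefSeq (build GRCm38.p6), 250 bases before to 50 after the start, were found for 8 of the 10 genes, all but Hey1 and Hes1. They were searched on both strands for TGGGAA (core of the RBPJ site), CTTTGA (core of the TCF/LEF site, through which beta-catenin acts) and CACGTG (an E-box bound by Hes and Hey proteins). The RefSeq start matched that of the listed transcript for Notch1, Dll4 and Notch2. It lay inside the listed transcript by 18 bases for Hey2, 27 for Notch4, 124 for Jag1, 153 for Dll1 (at the nearer of its listed starts) and 281 for Jag2. The Jag2 window therefore lies wholly, and those of Dll1 and Jag1 for the most part, within the span of the listed transcript. The Jag2 window is 86.0% G and C with 63 CpG and that of Dll1 62.7% with 24, against medians of 52.7% and 7 over 32851 promoters. Hey2 held 2 RBPJ cores, on opposite strands, and was the one of the 8 with any, whereas 25.6% of 32851 promoters hold at least 1 and 3.79% at least 2. The later Hey2 core spans the RefSeq start and so lies within the span of the listed transcript. Jag1 held 1 TCF/LEF core, which 16.0% of promoters hold, at base 25 after the RefSeq start and so further inside the listed transcript. No E-box was found in the 8 genes, where 7.15% of promoters hold one, and 6 of the 8 held none of these letters. The Hey2 stretch runs from 250 bases before to 6 bases after the RefSeq start (chr10:30842778-30843033, minus strand, GRCm38.p6) and is shown for its pair of RBPJ cores in capitals. The Jag1 stretch (chr2:137116479-137116508, minus strand) shows the TCF/LEF core, read on the opposite strand, in capitals.
Hey2: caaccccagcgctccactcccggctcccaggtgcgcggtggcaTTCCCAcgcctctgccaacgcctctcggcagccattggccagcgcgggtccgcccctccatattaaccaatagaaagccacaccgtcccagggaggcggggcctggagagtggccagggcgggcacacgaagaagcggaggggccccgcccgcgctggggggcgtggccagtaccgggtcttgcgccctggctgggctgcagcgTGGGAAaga
Jag1: ggggggagcgccTCAAAGaagcgatcagaa
A match describes letters only. The level of Hey2 itself, as given above, overlapped between the groups.

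The rest of the pathway was read from 7 lists with 88 genes, 82 of them tested. Of these, 9 were higher and 11 lower (24.4%, against the 22.8% called over all tested genes), with a median log2 fold change of -0.039 against 0.042. Among the genes that fell were 2 enzymes that cut the receptor. Furin, the protease that cleaves Notch on its way to the surface, measured 38.2, 44.1 and 39.0 RPKM in wild type and 26.5, 25 and 25.2 RPKM with Axin1 (log2 fold change -0.64, SE 0.07, limma adjusted p = 0.001). Adam10, which makes the first cut after ligand binding, measured 136, 135 and 138 RPKM in wild type and 110, 95.1 and 100 RPKM with Axin1 (log2 fold change -0.42, SE 0.07, limma adjusted p = 0.00535). Both groups of libraries stood well apart for Furin and Adam10, and both calls held whichever library was left out (adjusted p at most 0.0071 and 0.0278) and with the GC and length adjustment (-0.50 and -0.53).

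Of 16 tested genes for Notch glycosylation and proteolysis, the third that fell was Rfng, a fringe sugar transferase (log2 fold change -0.37, limma adjusted p = 0.038), a call that held only when wild-type replicate 3 was the library removed (otherwise adjusted p = 0.0531 to 0.119). The Rfng call was also lost with the GC and length adjustment (0.0733). The other fringe genes did not pass: Lfng measured 44.2 ± 2.26 and 41.6 ± 1.73 RPKM, and Mfng 143 ± 11.2 and 139 ± 0.168 RPKM (SD, n = 3). Adam17, the related protease, had a log2 fold change of -0.0064 (limma adjusted p = 0.953).

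Genes of the nuclear complex changed in both directions, with 4 of 22 higher, 4 lower and a median of -0.068. Rbpj, the DNA-binding partner of all Notch receptors, measured 4.44, 4.97 and 5.52 RPKM in wild type and 6.05, 6.76 and 6.71 RPKM with Axin1, with every Axin1 library above every wild-type library. Its log2 fold change was 0.33 (SE 0.08, limma adjusted p = 0.0224), a call lost without Axin1 replicate 2, Axin1 replicate 3 or wild-type replicate 1 (adjusted p = 0.0602 to 0.0877). Snw1, a coactivator and splicing factor, and Hdac1, a histone deacetylase, were higher by 0.47 and 0.69, and Ncor1, a corepressor, had a log2 fold change of -0.51 (limma adjusted p = 0.00349, 0.00256 and 0.00314). These 3 calls held without any of the 6 libraries. Maml3, a Mastermind coactivator, was lower (-0.31, adjusted p = 0.0183, or 0.065 without Axin1 replicate 3). Crebbp (-0.28) and Hdac2 (0.44) were called by narrower margins (limma adjusted p = 0.0274 and 0.0489). Crebbp was lost without Axin1 replicate 2 or 3 or wild-type replicate 2 or 3 (adjusted p = 0.0544 to 0.0931). Hdac2 was lost without any of the Axin1 libraries or wild-type replicate 1 (0.0655 to 0.135), and under median-of-ratios (0.0809) and upper quartile (0.0853) scaling. With the GC and length adjustment Crebbp, Hdac2 and Maml3 also missed the threshold (0.13, 0.206 and 0.052).

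**Figure D4:**
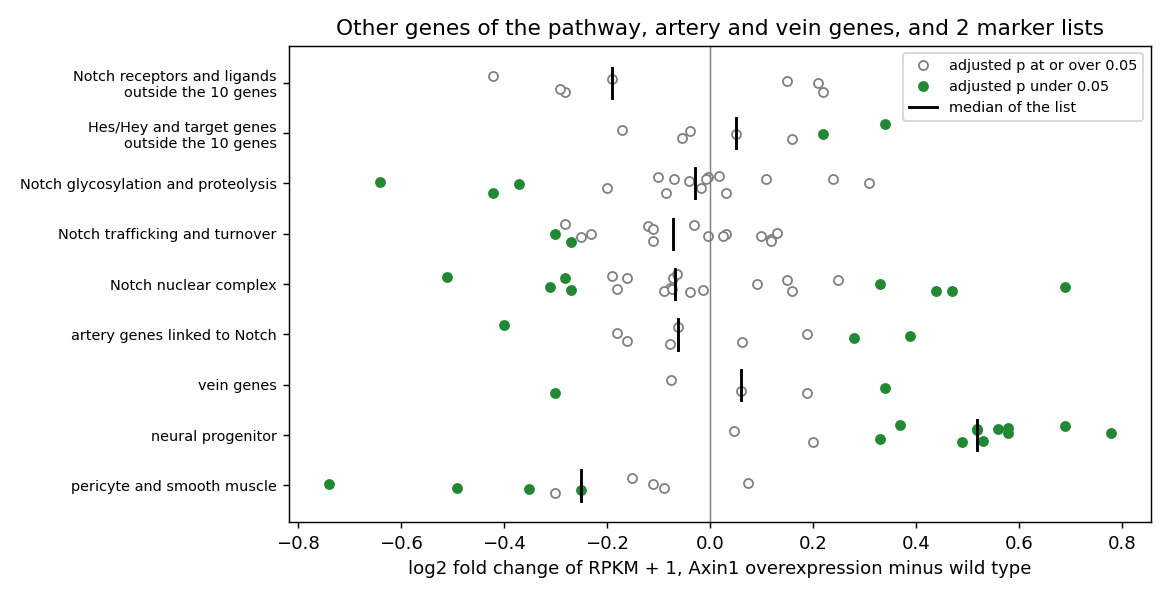
Log2 fold change on RPKM + 1 (Axin1 overexpression minus wild type) of each tested gene in the 7 pathway, artery and vein lists and in 2 marker lists, filled where the limma adjusted p is under 0.05, with the list median as a black bar. The neural progenitor list has its median at 0.52, while the medians of the 7 pathway, artery and vein lists lie between -0.19 and 0.061.

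In the list on trafficking and turnover, 2 of 16 genes were lower. They were Dtx4, a Deltex ubiquitin ligase (log2 fold change -0.30, limma adjusted p = 0.0158, or 0.0554 without Axin1 replicate 3), and Epn1, an adaptor for ligand endocytosis (-0.27, adjusted p = 0.0367, held only when wild-type replicate 3 was the library removed, otherwise 0.0698 to 0.093, and lost with the GC and length adjustment at -0.16, 0.131). The ligand-activating ubiquitin ligase gene Mib1 measured 22.4 ± 1.54 and 20.8 ± 2.10 RPKM (SD, n = 3; adjusted p = 0.383). None of 7 tested receptors and ligands outside the 10 genes passed by limma. At an unadjusted limma p under 0.05 there were 4 of 7, where 39.0% of all tested genes pass. Notch3, the receptor of pericytes and smooth muscle, measured 14.2, 13 and 18.4 RPKM in wild type and 14.8, 9.99 and 9.02 RPKM with Axin1, with Axin1 replicate 1 inside the wild-type range (log2 fold change -0.42, limma adjusted p = 0.114, or -0.19 and 0.507 with the GC and length adjustment). Beside it, 4 of 9 tested pericyte and smooth muscle markers were lower and 0 higher, where 8.37% of all tested genes were called as lower. None of the 12 on the list was at 0, and their summed level was 32.7 to 37.5 RPKM in wild type and 23.5 to 31.3 RPKM with Axin1. The count of lower markers was 0 without Axin1 replicate 2, Axin1 replicate 3 or wild-type replicate 1. It was 1 without wild-type replicate 3 and 1 with the adjustment. The part of these cells in the Notch3 value was not tested. Dll3, a ligand-like inhibitor of Notch, measured 3.37 ± 0.119 and 2.88 ± 0.729 RPKM (SD, n = 3; adjusted p = 0.285).

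Other target genes gave no common direction. Nrarp, a feedback inhibitor that Notch induces in endothelium, measured 85.3, 96.8 and 92.2 RPKM in wild type and 82.2, 94.2 and 90.7 RPKM with Axin1. The groups overlapped almost fully, with a log2 fold change of -0.038 (limma adjusted p = 0.739). Heyl measured 1.46 ± 0.0284 and 1.19 ± 0.196 RPKM (SD, n = 3; log2 fold change -0.17, adjusted p = 0.12). Gas1 and Ccnd1, which other pathways control too, were higher by 0.34 and 0.22 (limma adjusted p = 0.0263 and 0.0471), the Gas1 call being lost without Axin1 replicate 2 or 3 or wild-type replicate 2 or 3 (adjusted p = 0.0608 to 0.0944) and that of Ccnd1 on removal of each library except wild-type replicate 2 (0.0667 to 0.126). The Ccnd1 call was also lost with the replicate number as a block (0.0675), the GC and length adjustment (0.08), median-of-ratios scaling (0.12) and upper quartile scaling (0.131).

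Artery genes linked to Notch also split. Efnb2, the arterial ephrin, rose from 52.1 ± 1.31 to 63.6 ± 1.90 RPKM and Gja5, an arterial connexin, from 43.2 ± 4.87 to 56.6 ± 3.36 RPKM, while Gja4, another connexin of arteries, fell from 206 ± 9.90 to 156 ± 15.5 RPKM (SD, n = 3; limma adjusted p = 0.0127, 0.0182 and 0.012). Without Axin1 replicate 3 the Efnb2 call was lost (adjusted p = 0.0509), as was that of Gja5 (0.059), which was also lost without Axin1 replicate 1 or wild-type replicate 1 (down to 0.0517). The Gja4 call was lost without Axin1 replicate 2 (0.0534). The other 6 of 9 artery genes did not pass, with a list median of -0.062. Of 5 vein genes, Nr2f2, the venous factor that holds Notch genes down, was higher (log2 fold change 0.34, adjusted p = 0.0233) and Flt4 lower (-0.30, adjusted p = 0.0288). Nr2f2 was lost without Axin1 replicate 2 (0.0817) or wild-type replicate 2 (0.0563), Flt4 on removal of each library except Axin1 replicate 1 (0.0567 to 0.111), and both with the GC and length adjustment (0.0663 and 0.179).

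The genes whose pattern over the 6 libraries lay nearest to each called member were found by the root mean square difference of centred log2(RPKM + 1) values. For Dll1 they were Snrnp48 (0.033), Dmrta2 (0.0375) and Dse (0.0388), against a spread of 0.184 for Dll1 itself. For Jag2 they were Celsr3 (0.0512), Cntn2 (0.0519) and Ncoa4 (0.0572), against 0.234 for Jag2. With 2 groups, this measure mainly finds genes with a like fold, and the cells they come from were not tested. Snrnp48 went from 10.3 ± 0.692 to 13.5 ± 1.16 RPKM and Dse from 3.13 ± 0.181 to 4.13 ± 0.631 RPKM (SD, n = 3). Dmrta2, a transcription factor of cortical progenitors, went from 3.48 ± 0.241 to 4.65 ± 0.55 RPKM (SD, n = 3). Ncoa4 went from 3.56 ± 0.427 to 2.4 ± 0.445 RPKM (SD, n = 3). Celsr3 and Cntn2, both known from neurons, had means of 22.3 ± 2.33 and 19.2 ± 1.15 RPKM in wild type against 16.9 ± 2.03 and 14.7 ± 1.40 RPKM with Axin1 (SD, n = 3). By contrast, of 11 neuron markers 3 were higher and 0 lower by limma, where 14.4% of all tested genes were called as higher and 8.37% as lower. The neuron markers had a median log2 fold change of 0.13 and a sum of 571 to 690 RPKM in wild type and 640 to 664 RPKM with Axin1.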

How the data were processed

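Expression was deposited by the authors as RPKM. The header does not name the unit, but the description of the data does. As a check, the implied transcript length was 0.986 of the reference length (median over 8463 genes). Per the file headers, the authors also deposited mean normalized counts (a signal), a fold (ratio) between groups and p-values. The header does not name the groups; each mean was assigned by arithmetic, being 0 in exactly the rows where all RPKM of that group are 0. Per the submitters' processing notes, Bowtie, DESeq and build mm9 were used; their versions and the counter are not stated there.

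Whole reads were recovered from RPKM and group means (100.0% of values whole within 0.05 reads for single-transcript genes, 26.8% for the others, so their library totals are approximate). Replicates differed by more than sampling noise (chi-square per degree of freedom 7.3 to 43.8).

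Groups were compared by limma 3.58.1 (R 4.3.3), with genotype as the only factor, over log2(RPKM + 1) of 12493 genes whose mean reached 1 RPKM, two-sided, Benjamini-Hochberg threshold 0.05; folds on this scale understate changes of low genes. Nothing in the labels beyond "biological replicate" says which embryos the libraries came from. Reads were also simulated for 12493 genes, 200 of them changed, in each of 5 simulations. There limma recovered 61.2%, 91.9% and 99.1% of genes changed by a log2 of 0.5, 1 and 2, with 12.2 false calls on average. Changes smaller than 0.5, as all 10 genes showed, and a bias by GC content or length were not simulated. These shares therefore do not give the power or the false calls for the 10 genes. Members, lists and tests were chosen with earlier results of these data known. Named genes are the members, Axin1, pathway genes that passed (up to 8 a list) and a fixed set of other pathway genes. The 3 nearest patterns of each called member were also named. Adam17, Mib1, Sox2, Neurog2, Nes, Slc1a3, Cldn5, Esam, Tie1 and Emcn were added after their values were seen. So were Ephb4, Cxcr4, Aph1a, Dtx3l and Ctbp2, which passed with the GC and length adjustment. A few genes named by this rule are counted in their lists but not reported here. Promoters are from RefSeq, GRCm38.p6, not the authors' build. Alternatives were other pseudocounts (0.1, 10), filters, scalings, variance models, voom, a loess correction for GC content and length (span 0.5), a replicate block and leaving out each library.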

Additional observations from a re-analysis of the deposited data

How the results depend on the processing

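Of 159 refits of the 10 genes under 16 alternatives (Hey2 has too low a mean for the filter of at least 5 RPKM), 142 kept direction and side of the threshold, 8 lost a call, 8 gained one and 1 turned, Notch2 at 0.062 with the GC and length adjustment. That adjustment left Jag2 at -0.21 and called 890 genes as higher and, of the other-cell markers (6 lower otherwise), 2 as lower. With no filter on low values Jag2 missed the threshold at -0.40, 0 of the 10 genes and 7 pathway genes were lower, and 1 other-cell marker was. The lower Notch genes numbered 3 with the median of ratios and with the upper quartile (1117 genes higher and 1466 lower over all), and 2 with trend and robust variances. A pseudocount of 10 left 0 other-cell markers lower and moved Jag1 minus Dll4 to 0.032.

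Leaving out each library gave 0 to 1 higher and 0 to 3 lower Notch genes, 4 to 9 higher and 4 to 11 lower pathway genes, 589 to 1492 higher and 465 to 933 lower genes over all, and 12 to 19 higher and 0 to 7 lower other-cell markers. The log2 fold change ranged from 0.27 to 0.40 for Dll1 and from -0.48 to -0.31 for Jag2. Removing Axin1 replicate 2 gave the lowest counts over all genes.

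Samples with the same replicate number deviated together only weakly (correlations 0.08, 0.13 and 0.06), though each correlated best with its own number, a hint from the data and not from the design. The cause of these changes was not tested. With the replicate number as a block 2675 genes were called, 1591 higher and 1084 lower, 10 other-cell markers were lower, and 0 calls among the 10 genes changed; of the named pathway genes Ccnd1 alone lost its call (0.0675). For a 1 kb transcript, the 3 reads that a zero count still permits equal 0.048 to 0.142 RPKM, counting error only; all 10 genes lay above it.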
